A study of Mus musculus with 5 samples.

Results

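Transcript levels of 7 genes that encode ion channels, an ion cotransporter and a receptor that acts on them were followed across the cell types of the fetal mouse lung: Piezo1, Piezo2, Scn7a, Scn3b, Ryr2, Slc12a2 and Adrb1. The genes were chosen from the 32285 genes in the files by symbol, as channels and transporters of lung capillaries, and the choice was made with their levels in endothelial and epithelial cells and their differences between genotypes already known. All 7 were found, 1 row each, and all 7 passed the filter on low counts in each set of summed cells compared below. Cells of dissociated whole lungs at stage E18.5 were captured in droplets and their RNA counted at the 3′ end as unique molecular identifiers (UMIs). There were 5 libraries, each taken as 1 embryo. Het1 and Het2 carried 1 intact and 1 disrupted allele of Zswim8 (Zswim8+/-), and KO1, KO2 and KO3 were labelled Zswim8-/-. Values below are given for the Het libraries in the order Het1, Het2 and for the KO-labelled ones in the order KO1, KO2, KO3. The ZSWIM8 protein recruits AGO-bound microRNAs to a ubiquitin ligase for decay. The labels name no wild-type embryos, no strain and no treatment, and the controls thus carry the allele too.

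PIEZO1 and PIEZO2 are large cation channels that open when the membrane is stretched. PIEZO1 is known as a sensor of blood flow in endothelium, and PIEZO2 as the channel of touch and of lung stretch in sensory nerves. Scn7a encodes NaX, an atypical sodium channel that is not opened by voltage in the usual way and is known as a sensor of the sodium level. Scn3b encodes an auxiliary beta subunit of voltage-gated sodium channels. RYR2 is the ryanodine receptor through which calcium leaves its internal store, best known in heart muscle. Slc12a2 encodes the Na-K-Cl cotransporter NKCC1, which loads cells with chloride and drives the secretion of fluid by the fetal lung epithelium. Adrb1 encodes the beta-1 adrenergic receptor, which raises cyclic AMP and in heart muscle acts on calcium release through RYR2. Lung capillaries hold general capillary cells, which can divide and repair the vessel, and aerocytes, large thin cells that face the air spaces.

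Promoter sequences from RefSeq are shown for 4 of the 7 genes, and those of the other genes are not reported here. The endothelial levels of the 4 are compared below, and 3 of them, unlike Piezo1, were lower together in KO-labelled capillaries. Each runs 5′ to 3′ on the gene's strand from 250 bases before the start to 50 after it (GRCm38.p6), and capitals mark GGAA or its complement TTCC, the core of sites for ETS factors, which are known regulators of endothelial genes. The windows lie at chr8:122551280-122551579 (minus strand), chr2:66784861-66785160 (minus), chr13:12106896-12107195 (minus) and chr19:56721867-56722166 (plus).
Piezo1: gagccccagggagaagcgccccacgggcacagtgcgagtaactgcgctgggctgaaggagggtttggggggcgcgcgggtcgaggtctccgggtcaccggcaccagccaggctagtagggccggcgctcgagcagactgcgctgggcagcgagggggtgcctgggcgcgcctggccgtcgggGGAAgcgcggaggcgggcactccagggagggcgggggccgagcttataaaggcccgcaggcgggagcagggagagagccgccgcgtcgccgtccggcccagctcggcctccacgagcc
Scn7a: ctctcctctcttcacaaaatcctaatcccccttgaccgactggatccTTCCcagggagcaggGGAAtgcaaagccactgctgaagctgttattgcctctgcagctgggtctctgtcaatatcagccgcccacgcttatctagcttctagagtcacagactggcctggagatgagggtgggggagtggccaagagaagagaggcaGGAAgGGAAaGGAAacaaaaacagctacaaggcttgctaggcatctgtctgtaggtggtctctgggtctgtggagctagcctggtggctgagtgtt
Ryr2: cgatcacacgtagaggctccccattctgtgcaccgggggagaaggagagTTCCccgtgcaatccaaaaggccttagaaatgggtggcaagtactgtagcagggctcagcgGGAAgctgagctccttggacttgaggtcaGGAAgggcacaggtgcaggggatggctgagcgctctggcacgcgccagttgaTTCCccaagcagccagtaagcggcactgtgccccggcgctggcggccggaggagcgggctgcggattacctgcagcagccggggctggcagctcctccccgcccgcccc
Adrb1: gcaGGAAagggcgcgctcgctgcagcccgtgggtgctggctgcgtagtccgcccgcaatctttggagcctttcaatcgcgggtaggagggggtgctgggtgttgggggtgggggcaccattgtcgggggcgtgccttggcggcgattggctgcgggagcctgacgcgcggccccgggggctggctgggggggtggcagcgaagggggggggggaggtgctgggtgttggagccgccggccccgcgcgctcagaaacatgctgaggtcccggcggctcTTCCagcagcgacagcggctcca
The ETS core was found 5 times in the Scn7a window, 4 times in that of Ryr2, 2 times in that of Adrb1 and 1 time in that of Piezo1, counting both strands. Among 32851 promoters of the same length, 95.98% held it, with a median of 3 matches, so its presence sets none of the 4 apart. The E-box CANNTG was found 2 times each in Scn7a and Ryr2 and not in Piezo1 or Adrb1, against 72.31% of all promoters with a match. The SOX core ACAAT was found 1 time, in Adrb1, and 31.02% of all promoters held it. The Scn7a window was poor in CG pairs (3, with 54.0% G and C) and those of Piezo1 (34, 75.0%), Adrb1 (28, 72.3%) and Ryr2 (18, 65.3%) were rich in them, beside medians of 7 and 52.7% over all promoters.

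All 7 are protein-coding genes in the GENCODE vM21 annotation of GRCm38. Piezo1 lies on the minus strand of chromosome 8 (122481698 to 122551329), Scn7a on the minus strand of chromosome 2 (66673425 to 66784914), Ryr2 on the minus strand of chromosome 13 (11553102 to 12106945), Scn3b on the plus strand of chromosome 9 (40269217 to 40291618) and Adrb1 on the plus strand of chromosome 19 (56722199 to 56733113).

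The libraries held 56608582 to 93708304 UMIs, and 3051 to 4634 cells per library were kept. From 5 to 20 kept barcodes of each library were also kept in another (0.155% to 0.432%). Zswim8 itself stood at 36.4 and 38.7 UMIs per 1000000 (CPM) in the Het libraries against 38.6, 39.2 and 41.2 CPM in the KO-labelled ones. The label was thus not reflected in the Zswim8 level, 3′ counts cannot tell an intact from a disrupted transcript, and the name KO-labelled is kept throughout. By Y-linked and Xist UMIs, KO1 and KO2 were female and the other embryos male. Endothelial cells were 459 and 326 in the Het libraries against 309, 310 and 303 in the KO-labelled ones. Types within them were named from marker lists and carry the ending -like, since the names were rebuilt here and may differ from those of the study. The clustering did not use the 7 genes. The aerocyte-like cells (markers Car4, Ednrb, Apln) were 91 and 57 in the Het libraries and 2, 2 and 3 in the KO-labelled ones, and the general capillary-like cells (Gpihbp1, Kit, Aplnr) were 204 and 143 against 136, 145 and 146. In general capillary-like cells Car4 stood at 39.5 and 29.3 CPM in the Het libraries against 3.5, 4.9 and 9.4 CPM in the KO-labelled ones.

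Across the endothelial types of the Het libraries, 6 of the 7 genes were highest in aerocyte-like cells, and Piezo1 was highest in venous-like cells. These levels are a description, since they took part in the choice of the genes. All levels are UMIs of the gene per 1000000 UMIs of the cells summed (CPM). They are compared between cell types for 1 gene at a time and not between genes.

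**Figure D1:**
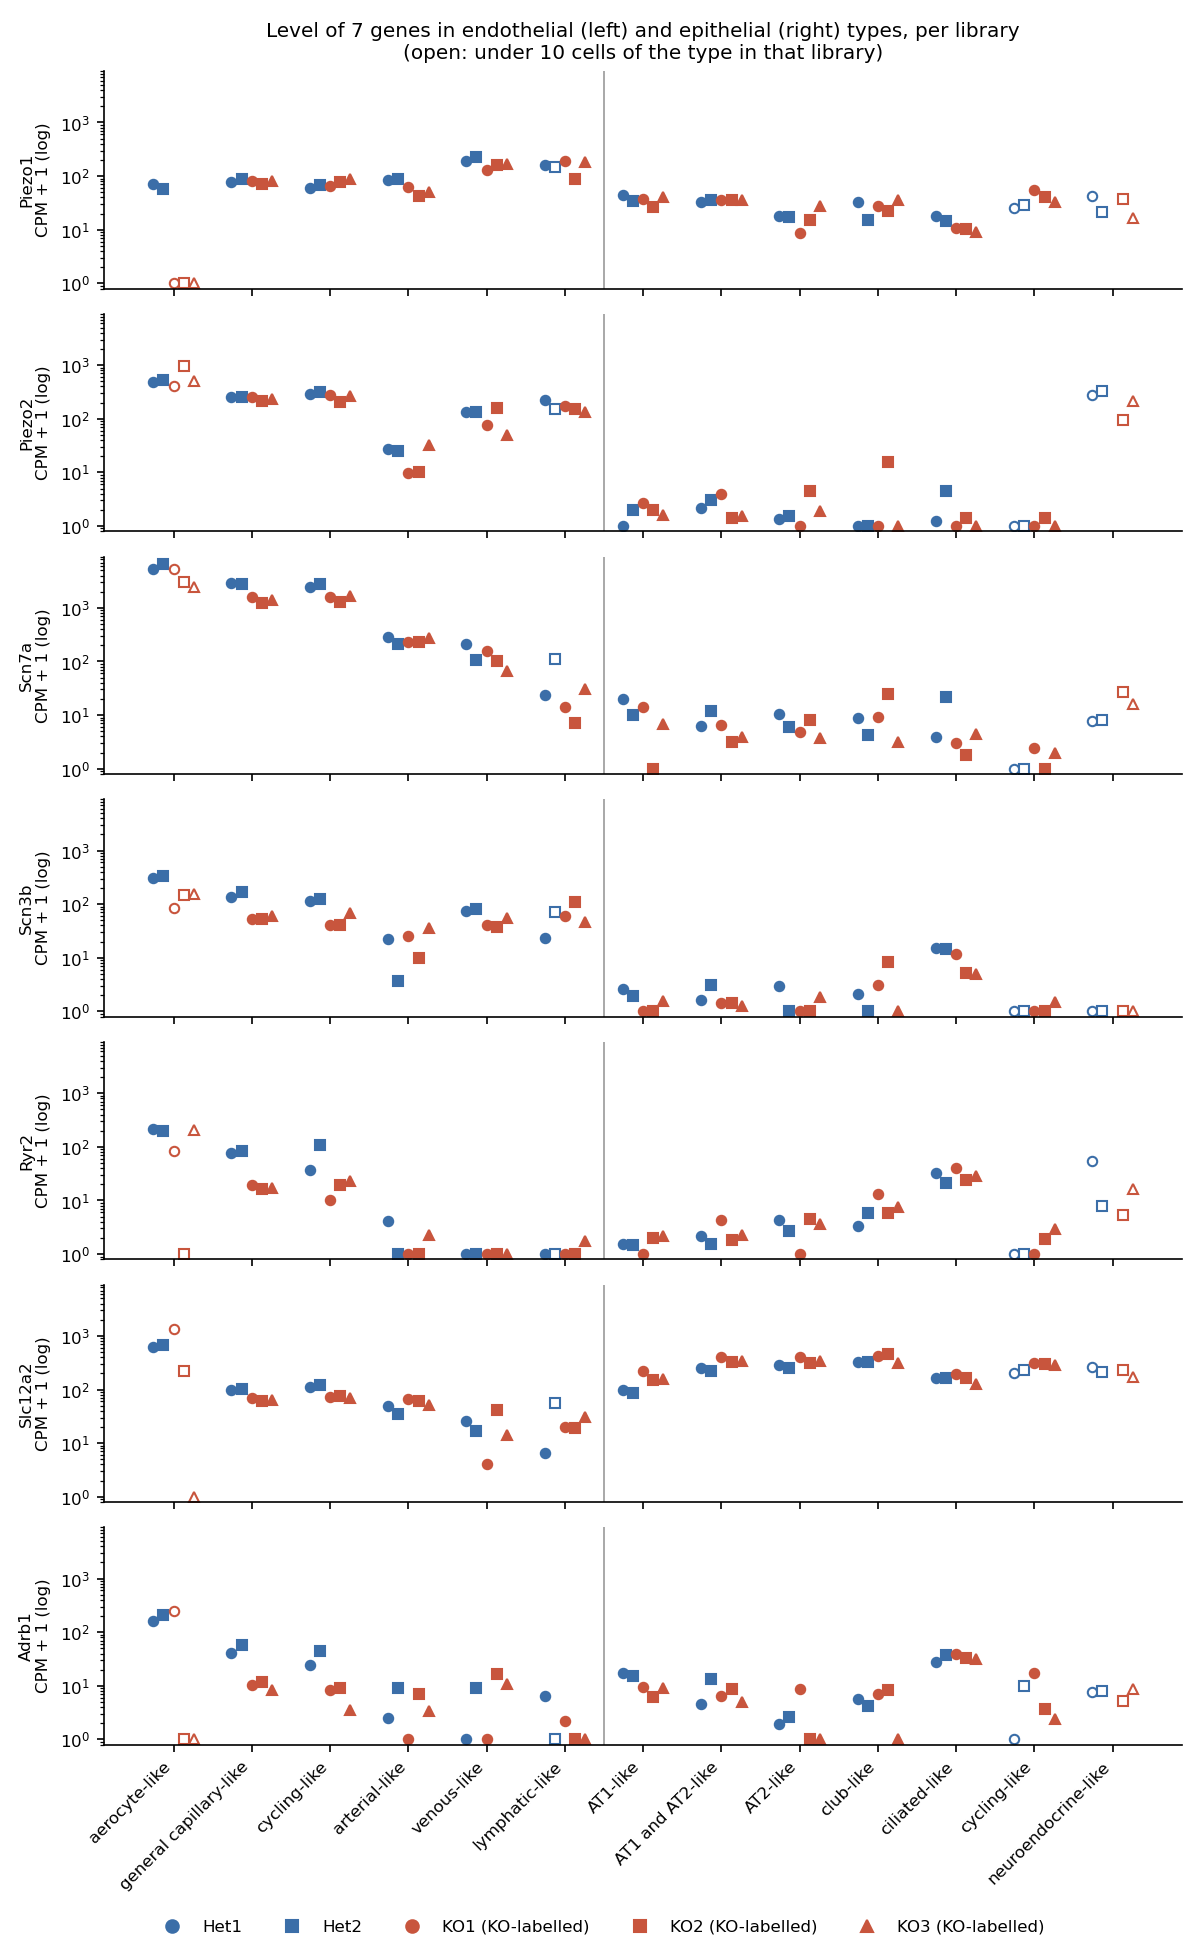
Level of each of the 7 genes (CPM + 1, log axis) in each endothelial-like and epithelial-like type, with 1 point per library, coloured by group and open under 10 cells. Scn7a, Scn3b, Ryr2, Adrb1 and Piezo2 sit highest in aerocyte-like cells of the Het libraries, Piezo1 in venous-like cells, and Slc12a2 is the only one of the 7 above 50 CPM in each epithelial type of every library with cells.

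Of the mechanosensitive channels, Piezo1 stood at 191 and 222 CPM in venous-like cells of the Het libraries and at 162 and 149 CPM in lymphatic-like cells (10 and 6 cells). It was lower in arterial-like (81.7 and 87.5 CPM), general capillary-like (77.7 and 88.0), aerocyte-like (68.9 and 56.3) and cycling-like cells (59.7 and 66.1). The arterial-like and general capillary-like values overlapped, as did the aerocyte-like and cycling-like ones. Piezo2 had another order. It stood at 494 and 517 CPM in aerocyte-like cells, 286 and 316 in cycling-like, 250 and 249 in general capillary-like, 224 and 149 in lymphatic-like, 130 and 133 in venous-like, and 26.2 and 23.9 in arterial-like cells. No neighbours in that order overlapped between the 2 Het libraries. The channel of flow sensing was thus present in every vessel type, and its paralogue least in arterial-like cells.

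Of the sodium channel genes, Scn7a reached 5374 and 6441 CPM in aerocyte-like cells, 2852 and 2830 in general capillary-like cells, and 2487 and 2745 in cycling-like cells of the Het libraries. Outside the capillaries it was lower, with 284 and 215 CPM in arterial-like, 211 and 105 in venous-like and 22.4 and 111 in lymphatic-like cells, the last 2 of which overlapped. The beta subunit gene Scn3b followed in the same order for the capillaries, with 310 and 335 CPM in aerocyte-like, 138 and 169 in general capillary-like and 115 and 122 in cycling-like cells. It stood at 72.7 and 80.8 CPM in venous-like, 22.4 and 69.9 in lymphatic-like and 21.6 and 2.7 in arterial-like cells, the lowest value being 1 UMI. Relative to general capillary-like cells, the Het mean in aerocyte-like cells was 2.08 times as high for Scn7a and 2.10 times for Scn3b.

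Within the endothelium, UMIs of the calcium release channel gene Ryr2 lay mainly in capillary-like and cycling-like cells. It stood at 217 and 195 CPM in aerocyte-like and 75.0 and 82.1 in general capillary-like cells, and the cycling-like values of 36.1 and 106 CPM overlapped the latter. In venous-like cells no Ryr2 UMI was counted in any of the 5 libraries (3 counts would be 7.5 to 15.3 CPM there), and in lymphatic-like cells 1 UMI was counted in all. Adrb1, the receptor upstream of that channel in heart muscle, was highest in the same cells, with 160 and 213 CPM in aerocyte-like and 40.1 and 56.2 in general capillary-like cells, overlapping 23.6 and 44.5 in cycling-like ones. In arterial-like, venous-like and lymphatic-like cells of the Het libraries it rested on 0 to 3 UMIs per library. The summed markers of heart muscle (6 genes, among them Myh6, Tnnt2 and Nppa) were low in the endothelial cells and overlapped between the groups, at 12.4 and 13.5 CPM in the Het libraries against 17.9, 2.6 and 8.5 CPM in the KO-labelled ones.

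The cotransporter gene Slc12a2 set aerocyte-like cells apart by more than any other of the 7, with a Het mean 6.52 times that in general capillary-like cells. It stood at 630 and 663 CPM in aerocyte-like, 110 and 119 in cycling-like, 95.4 and 103 in general capillary-like and 47.8 and 34.5 in arterial-like cells. The lymphatic-like values of 5.6 and 54.0 CPM overlapped both the arterial-like ones and the venous-like ones of 25.1 and 16.2 CPM. The corresponding ratios of aerocyte-like over general capillary-like cells were 3.87 for Adrb1, 2.62 for Ryr2, 2.03 for Piezo2 and 0.756 for Piezo1.

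In the summed endothelial cells, 6 of the 7 genes were lower in the KO-labelled libraries and Piezo1 was not. Fold changes come from edgeR's quasi-likelihood test on the sums over all 11952 genes tested and are given as log2 of KO-labelled over Het with their standard error (SE), as a description, because this contrast was known when the genes were chosen. Past an adjusted p of 0.05 (Benjamini-Hochberg), 6 of the 7 were lower, where 5.15% of all genes passed in either direction, 3.72% lower and 1.43% higher. For the same 6 genes the libraries did not overlap between the groups, which held for 38.6% of all genes. The median log2 change was -1.42 over the 7 genes and 0.003 over all genes. Nothing is read from these shares, since the contrast took part in the choice.

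**Figure D2:**
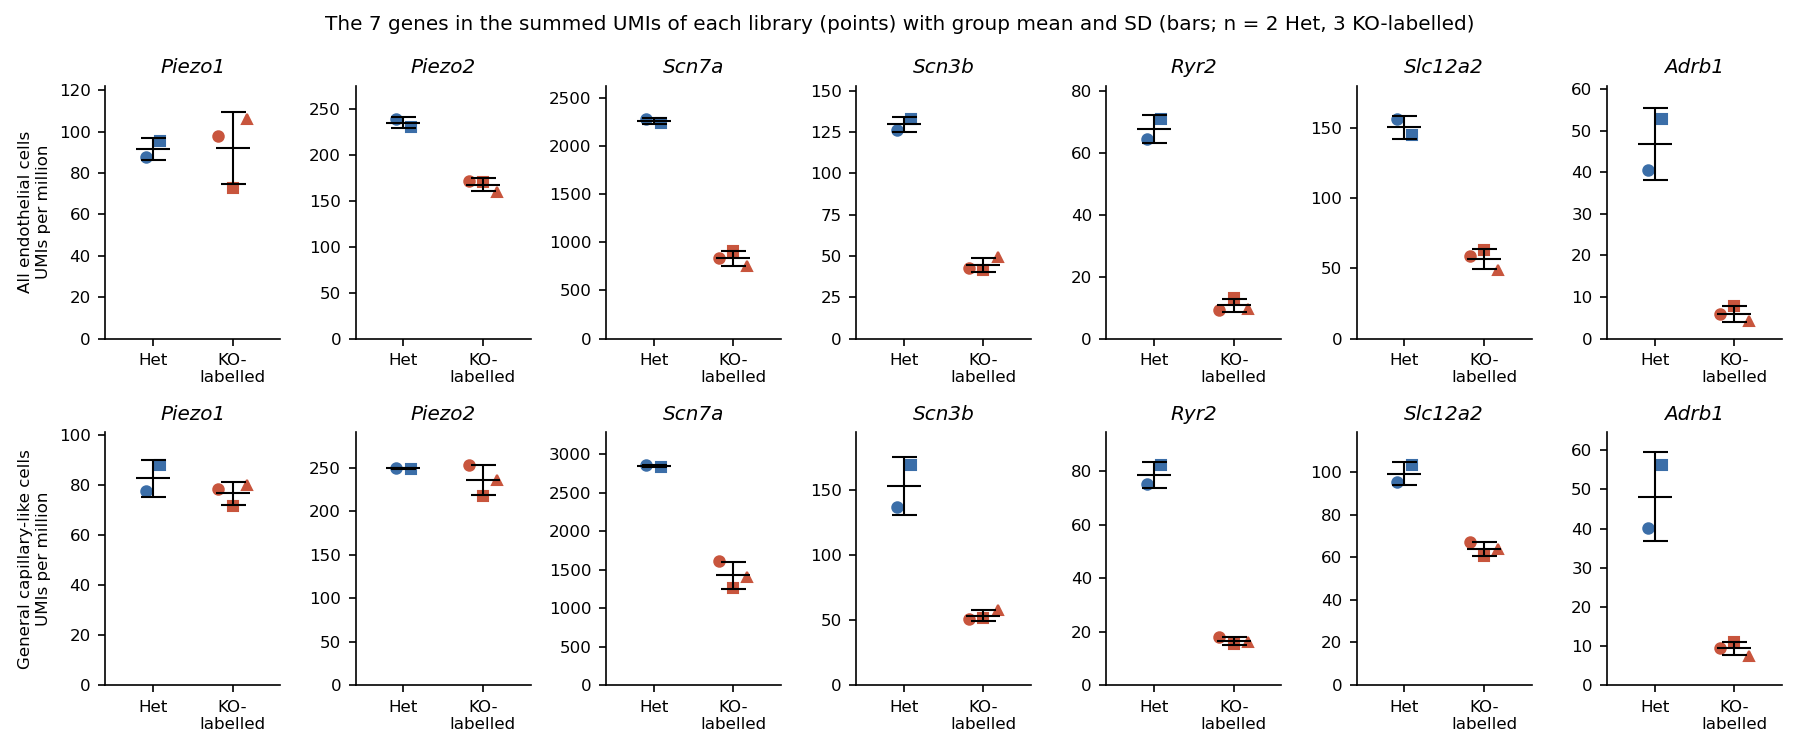
Level of each of the 7 genes (CPM) in the summed endothelial cells of each library, with 1 point per library and each group's mean and SD (n = 2 and 3), in the upper row, and in the general capillary-like cells in the lower row. In the upper row both Het libraries lie above all 3 KO-labelled libraries for Piezo2, Scn7a, Scn3b, Ryr2, Slc12a2 and Adrb1, and the groups overlap for Piezo1.

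Adrb1 showed the largest difference, at 40.7 and 52.9 CPM in the Het libraries against 5.8, 7.9 and 4.1 CPM in the KO-labelled ones. Both Het libraries were far above the 3 others, and the log2 change was -2.96 (SE 0.23, 7.78-fold lower). Ryr2 stood at 64.6 and 71.0 CPM in the Het libraries against 9.3, 13.2 and 9.6 CPM in the KO-labelled ones, a log2 change of -2.64 (SE 0.16). The calcium release channel and the receptor were thus the 2 genes of the 7 with the largest differences.

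Scn7a stood at 2280 and 2238 CPM in the Het libraries against 833, 911 and 757 CPM in the KO-labelled ones, with a log2 change of -1.42 (SE 0.09). Scn3b stood at 126 and 133 CPM against 42.7, 41.2 and 49.4 CPM, a log2 change of -1.53 (SE 0.11). For both sodium channel genes the libraries of a group lay close together and the groups well apart. Slc12a2 stood at 157 and 145 CPM in the Het libraries and 58.6, 63.0 and 49.1 CPM in the KO-labelled ones, a log2 change of -1.39 (SE 0.12).

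The stretch channels differed less. Piezo2 stood at 239 and 231 CPM in the Het libraries against 172, 171 and 159 CPM in the KO-labelled ones, with a log2 change of -0.47 (SE 0.08). Its libraries did not overlap, but the call was lost with the replicate number or the sex of the embryo in the fit, and without Het1, Het2 or KO3. Piezo1 stood at 87.9 and 95.6 CPM in the Het libraries against 98.0, 72.6 and 106 CPM in the others, which lay on both sides of the Het values, and its log2 change was 0.02 (SE 0.15). Within male embryos the comparison leaves KO3 against Het1 and Het2. In these sums KO3 was below both Het libraries for each of the 6 genes and above both for Piezo1. The endothelial sums held 10 and 6 lymphatic-like cells in the Het libraries against 33, 20 and 30 in the KO-labelled ones. Those cells held 29 of 389 and 47 of 369 Piezo1 UMIs in the Het libraries. In the KO-labelled ones they held 157 of 388, 28 of 340 and 240 of 565. The part of these cells in the Piezo1 value and in the other differences was not tested.

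**Figure D3:**
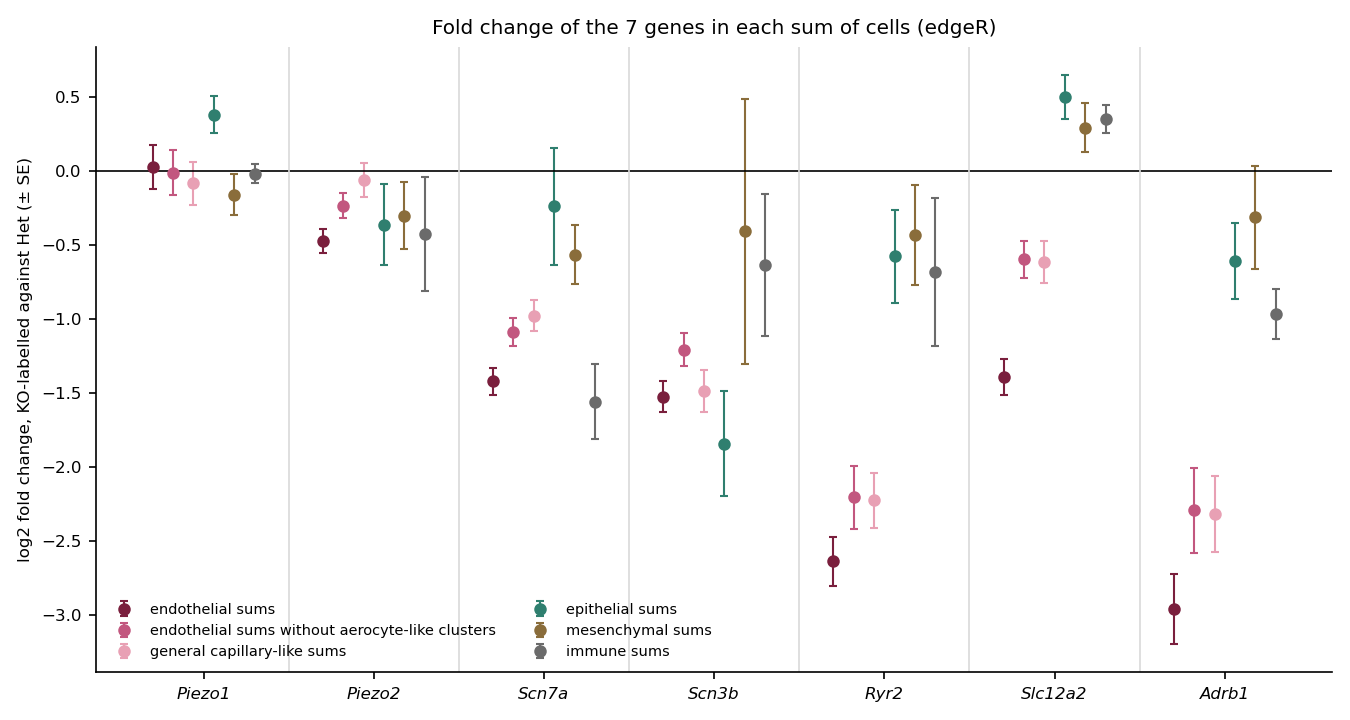
Log2 fold change of the 7 genes, KO-labelled over Het, with standard error bars, in the summed endothelial cells with and without the aerocyte-like clusters, and in the general capillary-like, epithelial, mesenchymal and immune cells. Ryr2 and Adrb1 lie furthest below 0 in the endothelial sums, at -2.64 and -2.96 in all endothelial cells, and Slc12a2 lies below 0 in endothelial sums (-1.39) and above 0 in epithelial sums (0.50).

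Marker levels moved with the groups in these sums. The 8 aerocyte markers summed to 853 and 898 CPM in the Het libraries against 327, 201 and 295 CPM in the KO-labelled ones, and the 10 endothelial lineage markers to 8950 and 8947 against 6495, 6317 and 6800 CPM. The 9 alveolar type 1 (AT1) markers summed to 356 and 418 against 176, 154 and 181 CPM, and the 6 club cell markers to 210 and 141 against 85.6, 39.3 and 55.5 CPM. The part of these levels in the differences of the 7 genes was not tested, beyond leaving out the aerocyte-like clusters. With those clusters left out, 4 of the 7 genes remained past the threshold in the same fit: Scn7a (log2 change -1.09), Scn3b (-1.21), Ryr2 (-2.21) and Adrb1 (-2.29). Slc12a2 (-0.60) and Piezo2 (-0.24) no longer passed, and Piezo1 was at -0.01. The Slc12a2 change was thus smaller by more than that of any other of the 7 once these cells were set aside.

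Within general capillary-like cells alone, 5 of the 7 genes were lower in the KO-labelled libraries, each without overlap, beside 4.18% of the 9362 genes tested past the threshold and 33.5% without overlap. The median log2 change was -0.98 over the 7 genes and 0.006 over all genes. As in all endothelial cells, these values are a description and nothing is read from the shares, since the contrast took part in the choice. Ryr2 stood at 75.0 and 82.1 CPM in the Het libraries against 18.1, 15.3 and 16.3 CPM in the KO-labelled ones (log2 change -2.23, SE 0.19). Adrb1 stood at 40.1 and 56.2 CPM against 9.5, 11.02 and 7.5 CPM (-2.32, SE 0.26). Both were several-fold lower in each KO-labelled library than in either Het library. Marker levels moved with the groups in these sums too. The 8 aerocyte markers summed to 389 and 391 CPM in the Het libraries against 244, 192 and 243 CPM in the KO-labelled ones, the 8 arterial markers to 1002 and 908 against 531, 500 and 626 CPM, and the 10 endothelial lineage markers to 9066 and 9445 against 7845, 7003 and 7853 CPM. The 9 AT1 markers summed to 381 and 329 against 217, 132 and 193 CPM, the 6 club cell markers to 230 and 174 against 139, 33.7 and 65.7 CPM, and the 6 erythroid markers to 37612 and 21071 against 11650, 15687 and 14159 CPM. Their part in the differences of the 7 genes was not tested.

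Scn3b stood at 138 and 169 CPM in the Het libraries and 50.9, 51.4 and 58.2 CPM in the KO-labelled ones (-1.49, SE 0.14), and Scn7a at 2852 and 2830 against 1614, 1256 and 1403 CPM (-0.98, SE 0.10). Slc12a2 stood at 95.4 and 103 CPM against 67.3, 60.6 and 63.8 CPM (-0.61, SE 0.14), a smaller difference than in all endothelial cells, and DESeq2 did not call it. Piezo2 was at 250 and 249 CPM in the Het libraries against 253, 218 and 237 CPM in the others, which overlapped (-0.06, SE 0.11). Piezo1 was at 77.7 and 88.0 CPM against 78.5, 71.6 and 80.1 CPM and overlapped too (-0.09, SE 0.15).

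Different clusters held most of the general capillary-like cells in the groups. Cluster 0 (led by Cxcl10 and Chrm3) held 29 and 13 cells of the Het libraries against 75, 95 and 64 of the KO-labelled ones, whereas cluster 4 (led by Tiam1) held 89 and 54 against 10, 4 and 12, and cluster 6 (led by Hmox1 and Esm1) 52 and 47 against 13, 11 and 18. Cluster 2 (led by Gm26917, Prnd and Vash1, and with 4 haemoglobin genes among its top 10) was the most even, with 34 and 29 cells of the Het libraries against 38, 35 and 52 of the KO-labelled ones. There, Scn7a stood at 1665 and 1996 CPM in the Het libraries against 1616, 1737 and 1702 CPM in the others, which overlapped. Ryr2 stood at 54.0 and 33.2 CPM against 8.7, 18.9 and 23.6 CPM and Scn3b at 81.1 and 133 against 65.0, 63.1 and 51.6 CPM, both without overlap on 2 to 24 UMIs per library. Adrb1 rested on 0 to 4 UMIs per library in that cluster. The 4 haemoglobin genes held 14.7% and 7.03% of its UMIs in the Het libraries against 1.81%, 2.71% and 1.78% in the KO-labelled ones. With that cluster left out of the general capillary-like sums, Scn7a (-1.11), Scn3b (-1.55), Ryr2 (-2.35) and Adrb1 (-2.23) stayed past the threshold and Slc12a2 (-0.53) did not, again as a description. In cluster 0, which held more general capillary-like cells of each KO-labelled library than any other cluster, Ryr2 overlapped, at 7.4 and 59.1 CPM in the Het libraries against 9.6, 14.1 and 7.7 CPM in the others, on 2 to 16 UMIs. Adrb1 overlapped in cluster 6, at 17.8 and 48.3 CPM against 28.9, 34.7 and 11.6 CPM on 3 to 22 UMIs. Other clusters gave lower KO-labelled values without overlap. Scn3b was lower in cluster 0 (66.8 and 75.3 against 42.5, 42.4 and 49.7 CPM), cluster 4 and cluster 6. Ryr2 was lower in cluster 4 (84.0 and 124 against 52.6, 48.6 and 22.3 CPM) and cluster 6. Adrb1 was lower in cluster 4 (84.0 and 99.9 against 63.1, 24.3 and 33.5 CPM) and, on few UMIs, in clusters 0 and 2. Slc12a2 in cluster 4 was higher in the KO-labelled libraries (179, 194 and 134 CPM on 8 to 17 UMIs) than in the Het ones (89.4 and 132 CPM). In cluster 2 Slc12a2 was lower, at 75.7 and 111 CPM in the Het libraries against 65.0, 66.2 and 43.0 CPM. It overlapped in clusters 0 and 6. In cluster 4, where Scn7a was highest, it stood at 4379 and 4394 CPM in the Het libraries against 3673, 3206 and 3571 CPM in the others, on 349, 132 and 320 UMIs. In each of clusters 0, 2, 4 and 6 the Scn7a difference was smaller than that over all general capillary-like cells. In cluster 6 Scn7a was lower without overlap, at 2490 and 2499 CPM in the Het libraries against 2236, 1643 and 1550 CPM. In cluster 0 it overlapped, at 1180 and 1339 CPM against 1257, 1000 and 928 CPM. How far the differences in the sums follow from which clusters the cells fell in was not tested.

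**Figure D4:**
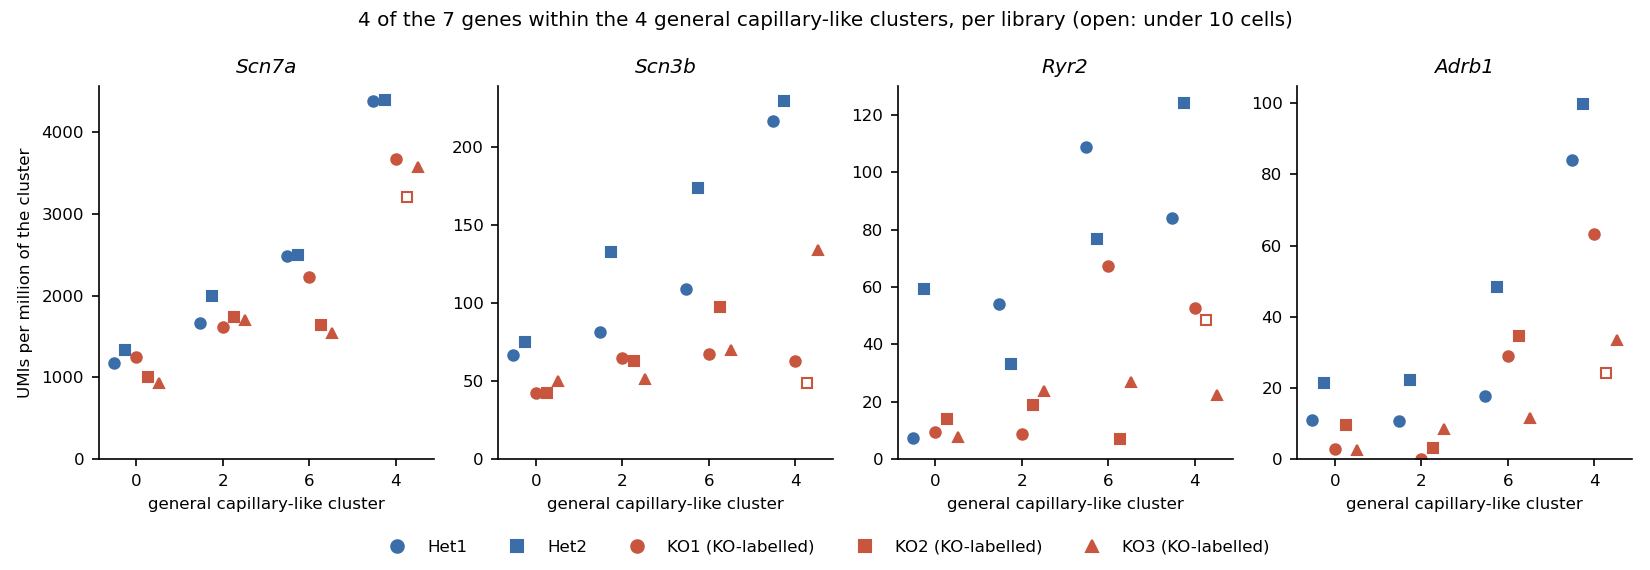
Levels (CPM) of 4 of the 7 genes in the 4 clusters of general capillary-like cells, 1 point per library, coloured by group and open under 10 cells. Scn7a differs more between clusters (928 to 1339 CPM in cluster 0 against 3206 to 4394 CPM in cluster 4) than between groups within cluster 2.

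In the other endothelial types the direction was not always the same. In cycling-like cells Scn7a stood at 2487 and 2745 CPM in the Het libraries against 1574, 1288 and 1659 CPM in the KO-labelled ones, and Slc12a2 at 110 and 119 against 72.2, 74.9 and 69.9 CPM, both without overlap. In arterial-like cells Scn7a overlapped, at 284 and 215 CPM against 232, 230 and 275 CPM. Slc12a2 was higher there in each KO-labelled library (65.6, 60.6 and 50.4 CPM) than in the Het libraries (47.8 and 34.5 CPM), on 13 to 41 UMIs each. Piezo1 in arterial-like cells was lower, at 61.3, 42.4 and 49.2 CPM against 81.7 and 87.5 CPM, and in venous-like cells at 128, 158 and 166 CPM against 191 and 222 CPM. The venous-like cells (12 to 24 per library) and the lymphatic-like cells of the Het libraries are few.

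The 7 aerocyte-like cells of the KO-labelled libraries gave wide counting intervals (exact Poisson, 95%, counting error only). Scn7a stood at 5301 CPM in KO1 (64 UMIs, 4082 to 6769), 2984 in KO2 (41 UMIs, 2141 to 4048) and 2451 in KO3 (48 UMIs, 1807 to 3250). Slc12a2 was counted 16, 3 and 0 times, which gave 1325 CPM in KO1 (758 to 2152) and 218 in KO2 (45.0 to 638), and left an interval of 0 to 188 CPM in KO3. The KO1 value was above both Het libraries and those of the other 2 below them. Piezo2 was at 414, 946 and 511 CPM beside 494 and 517 in the Het libraries. Adrb1, Ryr2, Scn3b and Piezo1 had 0 to 4 UMIs per library in these cells, too few for a comparison.

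In epithelial cells, Slc12a2 and Piezo1 had UMIs in every type named here, and Piezo2, Ryr2, Adrb1 and Scn3b are given for 1 or 2 types each. For Slc12a2 the Het libraries gave 324 and 331 CPM in club-like cells, 282 and 255 in alveolar type 2 (AT2)-like cells, 252 and 216 in cells with both AT1 and AT2 markers, 165 and 162 in ciliated-like cells and 95.9 and 86.3 in AT1-like cells. The AT2-like values and those of cells with both markers all but met, at 255 and 252 CPM for the nearest libraries. Neuroendocrine-like cells (4 to 9 in the 4 libraries that had any) stood at 264 and 215 CPM in the Het libraries. The channel gene Piezo2 was low in the other named epithelial types but stood at 271 and 326 CPM in these neuroendocrine-like cells of the Het libraries and at 92.8 and 213 CPM in KO2 and KO3, with no such cell in KO1. Ciliated-like cells held Ryr2 (20.3 to 39.4 CPM over the 5 libraries), Adrb1 (27.0 to 37.4 CPM) and Scn3b (4.1 to 14.4 CPM). Adrb1 was also counted in AT1-like cells, at 16.4 and 14.5 CPM in the Het libraries on 31 and 30 UMIs. Piezo1 stood at 25.7 to 43.4 CPM in AT1-like cells, 32.2 to 35.3 CPM in cells with both AT1 and AT2 markers, 14.3 to 34.1 CPM in club-like cells and 8.1 to 16.8 CPM in ciliated-like cells over the 5 libraries. In AT2-like cells it stood at 17.3 and 16.5 CPM in the Het libraries.

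Between genotypes, Slc12a2 in the summed epithelial cells had the opposite direction to that in endothelium. It stood at 210 and 185 CPM in the Het libraries against 334, 258 and 272 CPM in the KO-labelled ones. Each KO-labelled library was above both Het libraries, the log2 change was 0.50 (SE 0.15), and it did not pass the threshold. By type, Slc12a2 was higher without overlap in AT1-like cells (223, 148 and 155 CPM against 95.9 and 86.3), in cells with both AT1 and AT2 markers (405, 325 and 335 against 252 and 216) and in AT2-like cells (409, 311 and 336 against 282 and 255). It overlapped in club-like cells (427, 465 and 309 against 324 and 331 CPM) and in ciliated-like cells (197, 162 and 125 against 165 and 162 CPM). The alveolar types thus differed in 1 direction and the airway types overlapped. The mix of types differed as well, with 200 and 113 AT2-like cells in the Het libraries against 20, 19 and 65, and 60 and 55 cells with both markers against 94, 70 and 101. The part of this mix in the sum was not tested.

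**Figure D5:**
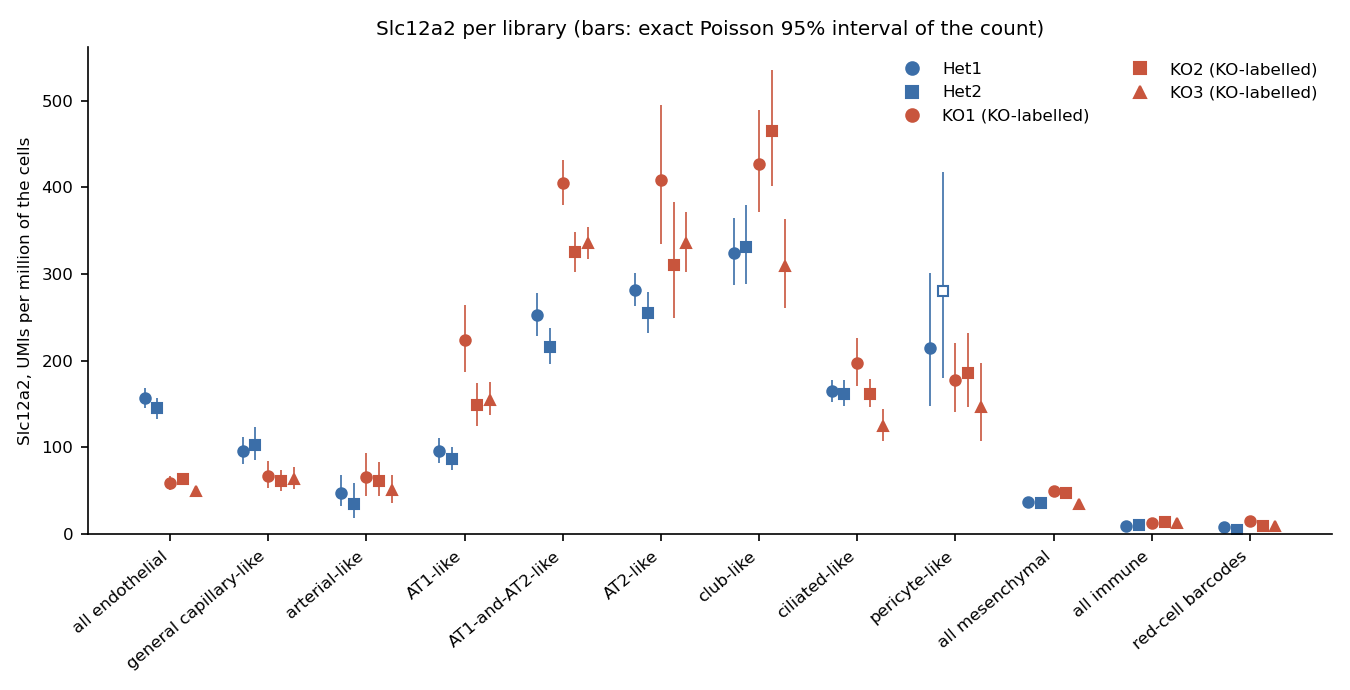
Level of the cotransporter gene Slc12a2 (CPM) in endothelial, epithelial and mesenchymal types, immune cells and red-cell barcodes, with 1 point per library, coloured by group, and exact Poisson 95% intervals of the count. In AT1-like cells the KO-labelled libraries (148 to 223 CPM) lie above the Het ones (86.3 and 95.9 CPM), and in general capillary-like cells they lie below (60.6 to 67.3 against 95.4 and 103 CPM).

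Of the others in the summed epithelial cells, Scn3b was the 1 gene of the 7 past the threshold, beside 10.7% of the 14171 genes tested, and it was lower, at 5.5 and 4.7 CPM in the Het libraries against 2.7, 1.3 and 1.0 CPM in the KO-labelled ones (log2 change -1.84, SE 0.35). It was no longer past the threshold without Het1, without Het2 or with cells of mixed markers left out. Of its UMIs in the Het libraries, 58 of 69 and 38 of 47 came from ciliated-like cells. The 7 ciliated cell markers summed to 1700 and 1481 CPM in the Het libraries against 826, 975 and 599 CPM in the KO-labelled ones, and the 6 club cell markers to 16474 and 17656 against 5404, 6696 and 4732 CPM. Within ciliated-like cells Scn3b stood at 14.4 and 13.3 CPM against 10.8, 4.1 and 4.1 CPM, on 6 to 58 UMIs. The part of these marker levels in the sum was not tested. Piezo1 was higher without overlap, at 32.9, 31.05 and 33.4 CPM in the KO-labelled ones against 25.3 and 22.9 CPM (0.38, SE 0.12), and did not pass. Over all libraries it stood at 17.2 and 21.8 CPM in the AT2-like clusters against 41.2 and 34.4 CPM in the AT1-like ones. The part of the mix of types in its sum was not tested. Counting Slc12a2, 2 of the 7 were thus higher and 1 lower without overlap, beside 45.2% of all genes. Piezo2 (log2 change -0.36), Scn7a (-0.24), Ryr2 (-0.58) and Adrb1 (-0.61) overlapped and did not pass. The median log2 change was -0.36 over the 7 genes and -0.007 over all genes, and as in endothelium these values are a description.

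The choice of the genes named endothelial and epithelial levels and not those in mesenchymal and immune cells, and for the latter the test is given. Earlier results of these data were still known at the choice. Where a level is that of background, as for Scn7a in immune cells below, the test cannot show a change in the cells themselves. In the summed mesenchymal cells, edgeR's quasi-likelihood test called 0 of the 7 genes and DESeq2 called 0. Of the 12901 genes tested, 0.938% passed the adjusted threshold by edgeR. An unadjusted p under 0.05 by edgeR was found for 1827 of the 12901 genes and for 1 of the 7. That gene was Scn7a, at 35.4 and 25.9 CPM in the Het libraries against 22.0, 14.5 and 23.6 CPM in the KO-labelled ones, with a log2 change of -0.57 (SE 0.20, adjusted p = 0.249 by edgeR). In red-cell barcodes, given below, Scn7a was close to these levels in the Het libraries and lower than them in the KO-labelled ones. It was also the 1 gene of the 7 without overlap, beside 33.1% of all genes, and the median log2 change was -0.32 over the 7 genes and 0.004 over all. Among the named mesenchymal types, Slc12a2 was highest in pericyte-like cells (147 to 280 CPM over the 5 libraries) and Piezo2 in alveolar myofibroblast-like cells (42.0 to 78.5 CPM). Ryr2 was highest in smooth muscle-like cells (8.1 to 12.5 CPM), where its UMIs were 10 to 23 per library, leaving aside 1 UMI in the pericyte-like cells of Het2. By cluster, Piezo2 stood at 64.0 CPM in the alveolar myofibroblast-like cells over all libraries. It was higher in an adventitial fibroblast-like cluster led by Wt1 and Ren1 (80.2 CPM) and in 12 unnamed cells led by Col2a1 (136 CPM). Scn7a was highest in alveolar fibroblast-like cells of 4 libraries, at 137 and 86.5 CPM in the Het libraries against 73.4, 28.3 and 57.8 CPM in the KO-labelled ones.

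In the summed immune cells, 2 of the 7 genes fell past the threshold, beside 8.38% of the 13810 genes tested. Scn7a stood at 14.2 and 7.9 CPM in the Het libraries against 3.2, 4.4 and 4.0 CPM in the KO-labelled ones (log2 change -1.56, SE 0.25, adjusted p = 0.0086 by edgeR). In red-cell barcodes, which should not express it, Scn7a stood at 37.7 and 25.0 CPM in the Het libraries against 13.2, 8.1 and 12.2 CPM in the others. The immune level of Scn7a was thus below that in red-cell barcodes in every library and is at the level of background. Adrb1 stood at 5.9 and 4.9 CPM against 2.3, 3.1 and 3.1 CPM (-0.97, SE 0.17, adjusted p = 0.012 by edgeR). In red-cell barcodes Adrb1 was at 1.0 and 1.1 CPM in the Het libraries and 0.9, 0.4 and 0.2 CPM in the others, below the immune level in every library. In the immune sums the 8 aerocyte markers stood at 160 and 192 CPM in the Het libraries against 94.6, 89.0 and 92.3 CPM in the KO-labelled ones, the 6 club cell markers stood at 313 and 294 against 219, 253 and 239 CPM, and the 6 alveolar myofibroblast markers at 409 and 448 against 257, 293 and 340 CPM. The 6 erythroid markers stood at 18061 and 12467 against 4657, 11304 and 10441 CPM. Their part in the Adrb1 and Scn7a changes was not tested. With the sex of the embryo in the fit neither gene passed (adjusted p = 0.092 and 0.099 by edgeR), and Adrb1 did not pass without Het1 (0.113). Slc12a2 was higher without overlap, at 13.1, 13.8 and 12.7 CPM against 9.7 and 10.1 CPM, but did not pass (0.35, SE 0.10, adjusted p = 0.063 by edgeR), and its level in red-cell barcodes was 4.4 to 14.8 CPM. Without overlap were 2 lower and 1 higher gene, beside 42.6% of all genes, and the median log2 change was -0.64 over the 7 genes and 0.010 over all. Piezo1 overlapped, at 35.9 and 37.0 CPM against 35.0, 37.1 and 40.4 CPM.

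Other genes of the same families were compared from 6 lists that hold none of the 7 genes. Of their 152 genes, 83 were tested in the summed endothelial cells, and 1 rose and 4 fell, which is 6.02%, close to the share among all genes given above. The median log2 change over the 83 genes was -0.08. Among sodium channels, 4 of 16 genes were tested and 0 were called by edgeR, with 1 at an unadjusted p under 0.05 and 0 by DESeq2. Of the mechanosensitive and TRP channels and Piezo partners, 12 of 23 were tested and 0 were called by edgeR, with 1 at an unadjusted p under 0.05 and 0 by DESeq2. With 4 and 12 genes tested, nothing is read from the lack of calls in these lists. Over all genes, 2455 of the 11952 tested had an unadjusted p under 0.05 by edgeR. The sodium channel gene with such a p was Scnn1a, at 4.7 and 6.5 CPM in the Het libraries against 1.5, 2.1 and 2.4 CPM in the KO-labelled ones. Its log2 change was -1.40 (SE 0.35, adjusted p = 0.062 by edgeR). Of the calcium release, store and entry genes, 22 of 39 were tested and 1 fell: Orai1, the pore of store-operated calcium entry, from 88.8 ± 0.994 (SD, n = 2) to 63.6 ± 5.05 CPM (SD, n = 3), with a log2 change of -0.47 (SE 0.11, adjusted p = 0.045 by edgeR). The other release channels tested, Itpr1 (0.05), Itpr2 (-0.44) and Itpr3 (-0.09), did not pass.

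Of the chloride cotransport and sodium pump genes, 19 of 26 were tested and 1 fell, Fxyd5, a regulatory subunit of the sodium pump, from 292 ± 7.71 (SD, n = 2) to 160 ± 7.38 CPM (SD, n = 3) with a log2 change of -0.85 (SE 0.08, adjusted p = 0.0013 by edgeR). Of the adrenergic genes, 16 of 26 were tested, and of the potassium channels, 10 of 22. Of the adrenergic list Gnas, the stimulatory G protein that beta receptors act through, rose from 1735 ± 230 to 3043 ± 662 CPM (SD, n = 2 and 3; 0.83, SE 0.17, adjusted p = 0.034 by edgeR). In general capillary-like cells Fxyd5 (-0.62, adjusted p = 0.0085) and Gnas (0.70, adjusted p = 0.00042) passed by edgeR, and Orai1 (-0.51, adjusted p = 0.056) did not. With the aerocyte-like clusters left out 2 of the 83 genes were called in place of 5, and without Het1, without Het2 and without KO3 1, 1 and 2 were, against 10 without KO2.

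The 7 genes did not share 1 pattern over the 19 named endothelial, epithelial and mesenchymal types (Pearson's r of log2(CPM + 1) of the mean over libraries, a description with no test, since types share libraries and depth). Each library weighed the same in these means. The aerocyte-like values thus rest in part on the 2, 2 and 3 such cells of KO1, KO2 and KO3, which limits every correlation given here. The closest pairs were Scn7a with Scn3b (0.83), Piezo2 with Scn7a (0.79) and Ryr2 with Adrb1 (0.78), and Slc12a2 with Piezo2 was the furthest apart (-0.27). Among 10671 other genes, the most alike to Scn7a were Clec1a (0.96) and Impdh1 (0.94), and to Scn3b Shank3 and Gimap9 (both 0.97). The most alike to Piezo1 were Ddx58 (0.90) and Spns2 (0.87), and to Piezo2 Sipa1 and Enho (both 0.91). The values were lower for Ryr2 (Ndufa12 at 0.84 and 2610203C22Rik at 0.83) and for Slc12a2 (Crat and Atp8a1, both 0.85), and Adrb1 was matched best by Pomp (0.89) and Gtf2f2 (0.88).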

How the data were processed

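The deposited values are UMI counts, whole numbers for each gene in each barcode of 5 libraries. The authors ran Cell Ranger 4.0.0 with build mm10, per the submitters' processing notes, on 10x 3′ libraries, per the labels. The genes and all lists were chosen with earlier results of these data known. Cells needed 500 genes or more and no more than 15% mitochondrial UMIs, and predicted doublets (0.8% per 1000 cells) were removed. They were clustered with scanpy 1.11.5 (2000 variable genes without the 7, 30 principal components, 15 neighbours, Leiden resolution 1) and again within lineages. Clusters were named from marker lists, with thresholds set after the clusters were seen: of a type's markers at least 60% in at least 20% of cells at 2-fold over the lower quartile of the clusters, with a mean log2 fold over 3, or 4 markers for general capillary cells. Clusters led by another class stayed unnamed (17 to 35 endothelial cells per library). Haemoglobin genes had UMIs in 73.33% to 100% of the cells of every endothelial cluster and were not counted as leading one, although all 4 were among the top 10 genes of cluster 2 (4.42% of its UMIs, and 1.36% to 1.60% in the other general capillary-like clusters). Leaving out that cluster was an alternative chosen after seeing the data.

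UMIs were summed per library and cell type and compared with edgeR 4.0.16 (quasi-likelihood, TMM, filterByExpr, genotype alone, two-sided, Benjamini-Hochberg over all genes, 0.05). The labels name numbered replicates, and each library was taken as 1 separate embryo. CPM are UMIs per 1000000 UMIs of the summed cells, without TMM. Endothelial sums held 3859499 to 5319829 UMIs per library and the TMM factors of all sums were 0.966 to 1.054. All 7 genes were tested in every set of summed cells, and in the mesenchymal and immune sums only some of them are named. From each list, genes past the threshold without overlap at 10 CPM or more in the higher group were named, 3 at most, and for each of the 7 genes the 2 genes with the most similar pattern at 20 CPM or more in 1 type. Some list genes that meet the rule are not reported here. Alternatives were DESeq2 1.42.0, library size alone, other filters on low counts (none, or a minimum count of 30), no removal of doublets, stricter cells (1000 genes or more, no more than 10% mitochondrial UMIs), mixed cells left out (3 or more markers of another lineage detected), Leiden resolutions 0.5 and 2, aerocyte-like clusters left out, the embryo's sex as a covariate, the replicate number as a block, and leaving out each library in turn. Positions are from GENCODE vM21 and promoters from RefSeq, with GRCm38.p6.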

Additional observations from a re-analysis of the deposited data

Results flagged for a closer look

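The log2 fold change of Slc12a2 was higher in the epithelial sums than in the endothelial sums by 1.889. Every KO-labelled library was above both Het libraries in epithelium and below both in endothelium. The difference was not tested. Likewise, the log2 fold change of Slc12a2 in the immune sums was above that in the endothelial sums by 1.741, with every library on opposite sides in the same way, and this difference was not tested either. Slc12a2 did not pass the threshold in the epithelial or the immune sums. Its immune level lay within the range of the red-cell barcodes, which is that of background. In the endothelial sums its log2 change was -1.39, and -0.60 with the aerocyte-like clusters left out.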

How the results depend on the processing

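In the endothelial sums the number of the 7 genes called was 4 to 6 over 17 alternatives, the lowest with the aerocyte-like clusters left out, and in the general capillary-like sums 4 or 5 over 19, against 6 and 5. Every called gene kept its direction there, and as above these counts are a description of genes chosen with the contrast known. Slc12a2 in general capillary-like cells passed in 12 of the 19, and not with the haemoglobin-rich cluster left out, an alternative chosen after seeing the data. In the epithelial sums 1 gene was called, against 2 with DESeq2, library size alone, no low-count filter, Leiden resolution 2, the replicate block or sex, 3 with Leiden resolution 0.5 or the stricter cells, 0 with mixed cells left out, and 0 to 2 with 1 library left out (0 without Het1 or Het2). In the immune sums 2 genes were called, against 0 with sex in the fit, 3 with library size alone and 1 to 2 with 1 library left out. No gene of the 7 was called in the mesenchymal sums under any alternative. For the 6 lists, 5 genes were called, against 8 with Leiden resolution 2, 2 without aerocyte-like clusters, 1 with the replicate block or sex, and 1 to 10 with 1 library left out.

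Fold changes of genes that were not called turned sign under some alternatives. Piezo1 kept its sign in 11 of 17 in the endothelial sums and 17 of 19 in the general capillary-like sums, Piezo2 in 18 of 19 there, and Scn7a and Piezo2 each in 15 of 16 in the epithelial sums. In the mesenchymal sums Piezo2 ranged from -0.69 to 0.23 and Scn3b from -1.24 to 1.72 with 1 library left out, and Slc12a2 came to -0.10 with sex in the fit. In the immune sums Piezo1 came to 0.042 with library size alone and 0.042 with sex, and with 1 library left out Piezo1 ranged from -0.056 to 0.013 and Piezo2 from -0.868 to 0.176. The cause was not tested. Over all genes, the endothelial fit called 616, against 110 with sex, 132 with the replicate block, 213 without aerocyte-like clusters, and 71, 111, 967 and 254 without Het1, Het2, KO2 and KO3. The general capillary-like fit called 391, against 213 with DESeq2, 152 with sex, and 70, 116, 794 and 179 without Het1, Het2, KO1 and KO2. The epithelial fit called 1516, against 189 with mixed cells left out and 308 and 477 without Het1 and Het2. The mesenchymal fit called 121, against 201 with DESeq2, 27 with no low-count filter, 7 with sex, 202 with mixed cells left out, and 28, 24 and 74 without Het1, Het2 and KO2. The immune fit called 1157, against 361 with sex and 349, 299 and 738 without Het1, Het2 and KO2. Library size alone moved the split of higher and lower calls from 487 and 670 to 656 and 419 in immune cells and from 581 and 935 to 727 and 761 in epithelium. Same-numbered libraries correlated at -0.208 to 0.186 in their deviations, so the numbers were not taken to pair embryos. The block changed no call of the 7 genes in endothelium other than that of Piezo2. Low counts limit Adrb1 and Ryr2 in the KO-labelled libraries, and the 2 Het libraries limit every comparison.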

Other observations

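Outside the types compared above, mesothelial cells held Piezo1 at 94.0 to 148 CPM over the 5 libraries. Scn7a stood at 83.6 to 366 CPM in Schwann or neural cells, of which there were 28 in all, on 2 to 32 UMIs per library. Scn3b in mesothelial cells spread from 0 CPM in Het1 to 41.4 CPM in Het2, with 8.7 to 29.6 CPM in the KO-labelled libraries, so the Het libraries lay on both sides of the others.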
